A study of Mus musculus with 12 samples.

Results

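The 10 claudin genes most often placed along the mouse nephron (*Cldn1*, *Cldn2*, *Cldn3*, *Cldn4*, *Cldn7*, *Cldn8*, *Cldn10*, *Cldn14*, *Cldn16* and *Cldn19*) were followed in whole kidney after acute treatment with SK-124. They were chosen by name, with earlier results of these data known, so the choice was not blind to the values. Each was found in the gene tables by its Ensembl identifier, 10 of 55401 listed genes and 10 of 34 listed claudin entries. The mice were C57BL6 males aged 8 weeks that received a single intraperitoneal injection of vehicle (15% 2-hydroxypropyl-beta-cyclodextrin) or of SK-124 at 40 mg/kg, with 6 mice in each group and 1 library per mouse. SK-124 is a small-molecule inhibitor of the salt-inducible kinases SIK2 and SIK3, and the comparison asks which kidney transcripts change soon after this inhibition. The time between injection and RNA collection is not given for these libraries in the sources used here.

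Claudins are four-pass membrane proteins that join neighbouring epithelial cells at the tight junction and decide which ions slip between the cells. Each nephron segment makes its own set: *Cldn2* forms a cation and water pore in the proximal tubule, *Cldn16* and *Cldn19* form the divalent cation path of the thick ascending limb, and *Cldn14* lowers the permeability of that path. Loss of *CLDN16* or *CLDN19* in people causes renal magnesium and calcium wasting, and *Cldn14* is known as a gene controlled by the calcium-sensing receptor. In the collecting duct *Cldn4* and *Cldn8* work together in a chloride path, and *Cldn1* marks the parietal cells of Bowman's capsule.

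Among the 10 genes, the 3 that passed the test are claudins of the thick ascending limb. *Cldn14* and *Cldn16* rose with SK-124, and *Cldn19* fell to about 0.49 of its vehicle level in counts. The other 7 did not pass the test. All 10 passed the filter on low counts and were tested with edgeR's quasi-likelihood test, with p-values adjusted by Benjamini-Hochberg over 14159 genes (FDR, threshold 0.05). *Cldn14* passed the filter only through the SK-124-treated mice, with 10 to 41 counts against 0 to 2 in vehicle-treated mice. Its place among the genes called, and among those with groups apart, carries that selection. The count of 3 of 10 stands beside 24.4% of all tested genes with an FDR under 0.05. The 2 that rose compare with 10.8% of all genes and the 1 that fell with 13.5%, so the number called is near the background. The median log2 fold change of the 10 genes was -0.02, and over all genes tested it was -0.005. CPM values below are reads scaled to library size by the TMM method, and TPM (transcript abundance scaled to a fixed total) also divides by transcript length.

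**Figure D1:**
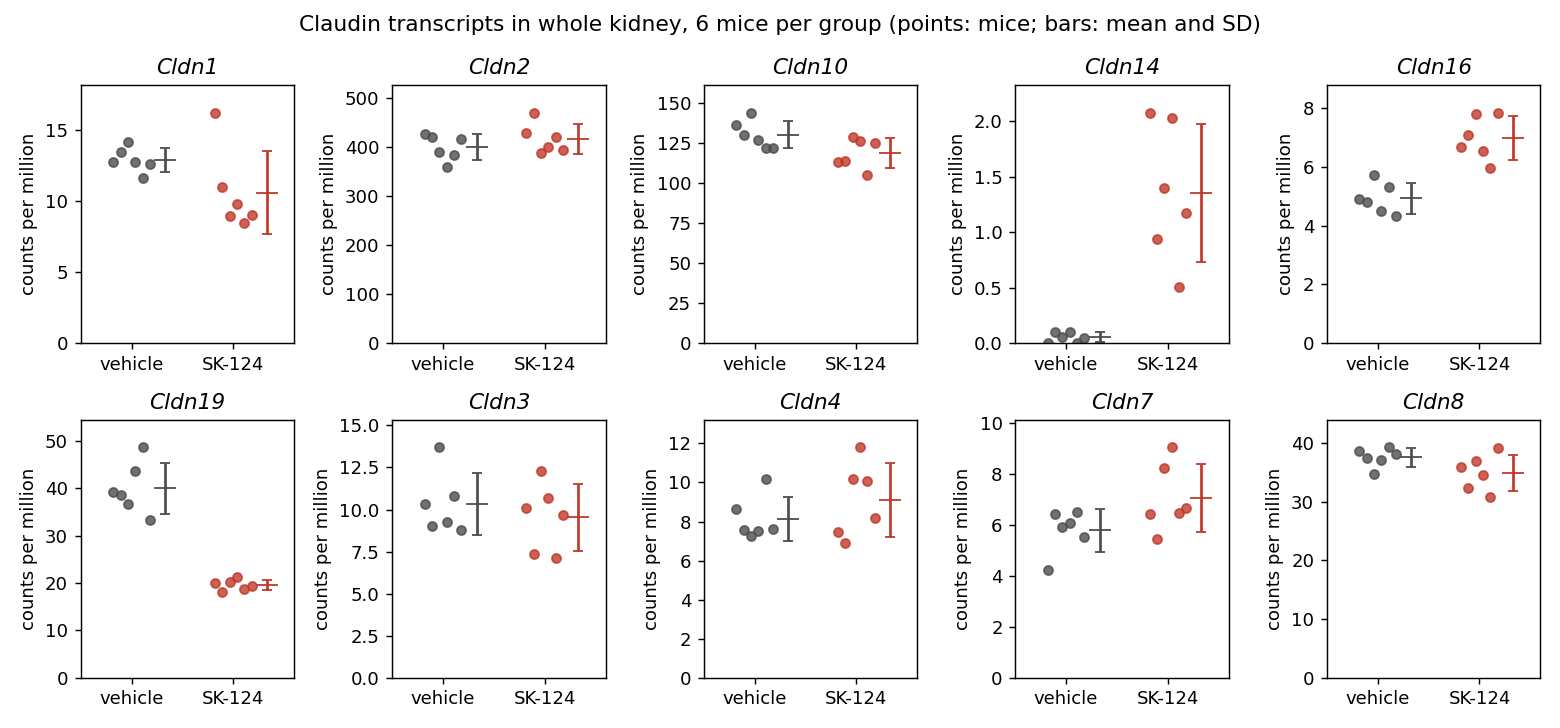
TMM-normalized CPM (vertical axes, linear from 0) of each of the 10 claudins in the 6 vehicle-treated and 6 SK-124-treated mice. Points are mice and bars are the mean and SD. The groups do not overlap for *Cldn14*, *Cldn16* and *Cldn19*, and they overlap in the other 7 panels.

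Expected counts summed to between 19244227 and 19771802 reads per mouse. The 10 genes with the most counts took 39.9% to 43.2% of a library in vehicle-treated mice, 44.4% to 46.8% in SK-124-treated mice 1 to 3 and 38.6% to 40.2% in SK-124-treated mice 4 to 6. The changes in *Cldn14*, *Cldn16* and *Cldn19* are therefore also given for each of these sets of 3 mice. In a whole-kidney sample, fewer cells of a type and less RNA per cell cannot be told apart.

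Ranked by median TPM in vehicle-treated mice, *Cldn2* stood first at 134 and *Cldn10* second at 118, and their ranges over mice overlapped. *Cldn8* at 16.3 and *Cldn19* at 15.4 formed the next overlapping pair, followed by *Cldn3* at 8.61. *Cldn16* at 5.16, *Cldn7* at 5.04, *Cldn4* at 4.5 and *Cldn1* at 3.87 followed, each overlapping its neighbour in this order. *Cldn14* came last at 0.04. *Cldn2* and *Cldn10* together made up 75.2% ± 1.72 (SD, n = 6) of all claudin TPM in vehicle-treated mice and 75.1% ± 1.49 in SK-124-treated mice. The 10 genes held 93.5% ± 0.431 of claudin TPM in vehicle-treated mice and 93.1% ± 0.402 in SK-124-treated mice. Of the 24 other claudin entries, 10 were at 0 in every mouse.

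*Cldn14* (ENSMUSG00000047109.13, chromosome 16, 93919031 to 94008837, minus strand, GRCm38) was close to silent without the inhibitor. The 6 vehicle-treated mice had 0, 2, 1, 2, 0 and 1 expected counts. The 6 SK-124-treated mice had 36, 16, 25, 41, 10 and 23. The lowest treated mouse thus had more reads than the 6 vehicle-treated mice together, with 6 counts in all against 151. In CPM this was 0.0497 ± 0.0447 (SD, n = 6) against 1.35 ± 0.621. The fitted log2 fold change was 4.61 (SE 0.51, FDR = 3.82e-06, edgeR's quasi-likelihood test), and because vehicle counts are so few it depends on how the fit treats low counts. *Cldn14* was admitted to this fit only through the SK-124-treated mice, and with no filter on low counts the value was also 4.61. The ratio of the summed counts, scaled to library size, was 27.4, with a 95% exact binomial interval of 12.3 to 75.8 that covers counting error only. In TPM the treated mice ranged from 0.44 to 1.70, so even after the increase *Cldn14* stayed below the lowest *Cldn16* value of 4.45 TPM. With only SK-124-treated mice 1 to 3 the log2 fold change was 4.74 (FDR = 1.54e-05), and with only mice 4 to 6 it was 4.49 (FDR = 0.000135).

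The annotation gives *Cldn14* 6 transcripts from several start sites, and the 5 with coding sequence end in the same exon, wholly or in part. The gene length that RSEM lists is the mean of its transcripts' lengths weighted by their estimated abundance, and it was 1266 bases in each of the 10 mice with a *Cldn14* count. That is the length of Cldn14-205, which has 2 exons, so the estimate placed the *Cldn14* reads on this transcript. Its last exon holds 1007 of the 1266 bases, and reads within the part shared with other transcripts cannot tell the starts apart. In the vehicle-treated mice with a count the estimate rests on 1 or 2 reads. Which start was in use was not measured. The start of Cldn14-205 lies at 93929567, far inside the gene. RefSeq promoter windows (GRCm38.p6, 250 bases before to 50 after a start) are shown for this start and for the most upstream one. They set side by side the start that the estimate assigned and one that it did not. Capitals mark TGACG or its reverse complement CGTCA, the core of the site bound by CREB, whose coactivators (the CRTC proteins) are held in the cytoplasm by salt-inducible kinases.
Cldn14 at the start assigned by the lengths, chr16:93929518-93929817, minus strand: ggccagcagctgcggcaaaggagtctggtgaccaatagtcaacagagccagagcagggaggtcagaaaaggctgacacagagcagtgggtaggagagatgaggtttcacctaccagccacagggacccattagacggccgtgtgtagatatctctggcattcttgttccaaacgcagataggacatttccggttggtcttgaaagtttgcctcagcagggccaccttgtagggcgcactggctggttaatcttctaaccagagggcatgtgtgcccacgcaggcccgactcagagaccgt
Cldn14 at the most upstream start, chr16:94008788-94009087, minus strand: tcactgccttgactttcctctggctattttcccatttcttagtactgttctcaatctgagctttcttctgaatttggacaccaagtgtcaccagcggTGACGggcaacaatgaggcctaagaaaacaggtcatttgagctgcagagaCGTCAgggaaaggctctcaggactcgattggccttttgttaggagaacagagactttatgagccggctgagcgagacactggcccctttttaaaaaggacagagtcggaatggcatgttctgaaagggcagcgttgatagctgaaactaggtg
The window of the assigned start holds no such core, and the upstream window holds one in each orientation. A window at another start, chr16:93929768-93930067, holds one. Among all 32851 promoter windows of this length, 20.8% hold TGACG on either strand. Windows were given for 9 of the 10 genes, 14 in all, and 4 of these held it, in *Cldn3*, *Cldn7* and *Cldn14*, and the windows of *Cldn16* and *Cldn19* had none. The full palindrome TGACGTCA, which contains that core, stood in a window of *Cldn7* alone among these 9 genes and in 1.79% of all windows. These matches are letters within 300 bases and are no measurement of binding.

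*Cldn16* (ENSMUSG00000038148.13, chromosome 16, 26463135 to 26482765, plus strand) carries the divalent cation path together with *Cldn19*. Its CPM was 4.89, 4.81, 5.72, 4.49, 5.31 and 4.31 in the 6 vehicle-treated mice. It was 6.66, 7.07, 7.79, 6.53, 5.96 and 7.85 in the 6 SK-124-treated mice. Each treated mouse was above each vehicle-treated mouse. The means were 4.92 ± 0.523 (SD, n = 6) and 6.98 ± 0.743, a log2 fold change of 0.50 (SE 0.10, FDR = 0.00088, edgeR's quasi-likelihood test). With only SK-124-treated mice 1 to 3 it was 0.55 (FDR = 0.00469), and with mice 4 to 6 it was 0.47 (FDR = 0.0178). In TPM the groups overlapped, from 4.45 to 5.80 against 5.42 to 7.75, and on log2(TPM + 0.1) limma gave 0.32 with an adjusted p of 0.0524, just past the threshold.

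*Cldn19* (ENSMUSG00000066058.11, chromosome 4, 119255414 to 119262438, plus strand) encodes the partner of *Cldn16* in that path. Its CPM was 39.2, 38.7, 36.8, 43.6, 48.7 and 33.4 in vehicle-treated mice. It was 20.1, 18.1, 20.3, 21.2, 18.8 and 19.3 in SK-124-treated mice. The highest treated mouse was well below the lowest vehicle-treated mouse. *Cldn19* thus fell with a log2 fold change of -1.03 (SE 0.08, FDR = 6.01e-08, edgeR's quasi-likelihood test). With only SK-124-treated mice 1 to 3 it was -1.04 (FDR = 2.36e-05), and with only mice 4 to 6 it was -1.01 (FDR = 2.78e-05). The CPM groups of 3 of the 10 claudins did not overlap, beside 13.0% of all tested genes. Treated mice lay wholly above for 2 of them, beside 6.32% of all genes, and wholly below for 1, beside 6.65%.

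**Figure D2:**
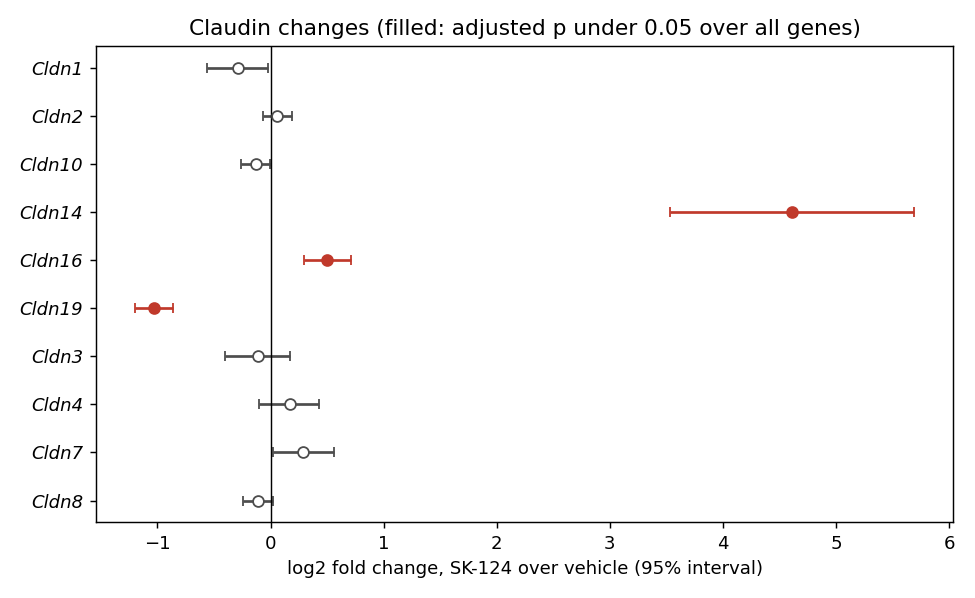
Log2 fold change in counts, SK-124 over vehicle (horizontal axis), of each claudin with its 95% interval from edgeR's quasi-likelihood fit over 6 and 6 mice. Filled points are the 3 genes with an FDR under 0.05, with *Cldn14* at 4.61, *Cldn16* at 0.50 and *Cldn19* at -1.03.

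The *Cldn19* change was smaller per transcript than in counts. In TPM the vehicle-treated mice ranged from 14.4 to 20.8 and the SK-124-treated mice from 8.66 to 12.3, and limma on log2(TPM + 1) gave -0.58 (adjusted p = 0.00098). The listed gene length also differed: it was 2195 to 2621 bases in vehicle-treated mice and 1656 to 1936 bases in SK-124-treated mice, with no overlap. Of 7 members with more than 1 annotated transcript, *Cldn19* was the 1 whose length groups stood apart, and this feature was singled out after its values were seen. Among the 12397 tested genes with more than 1 transcript, 40 were wholly shorter in treated mice, which is 0.323%. Of these 40, 4 including *Cldn19* had a log2 ratio of length at or below that of *Cldn19*, -0.49.

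*Cldn19* has 2 annotated transcripts, so the weighted length fixes how much of its TPM belongs to each. Cldn19-201 is 924 bases long with 5 exons and 224 codons. Cldn19-202 is 4168 bases long with 4 exons and 211 codons, and its last exon (119258808 to 119262438, 3631 bases) runs on through the splice site that Cldn19-201 uses and holds a long 3′ untranslated region. The transcripts part at the end of the fourth exon of Cldn19-201. They are shown there to mark where the protein's end and the 3′ region change, in lower case for the shared bases and in capitals for the first 15 that differ.
Cldn19-201: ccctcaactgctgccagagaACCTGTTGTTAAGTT
Cldn19-202: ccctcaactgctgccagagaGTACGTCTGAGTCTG
The implied TPM of the long transcript was 7.80, 7.65, 6.14, 8.0, 10.1 and 7.02 in vehicle-treated mice. It was 2.75, 2.12, 2.44, 3.07, 2.88 and 2.96 in SK-124-treated mice. The treated values lay together, all below the lowest vehicle value. The difference was -1.52 on the log2 scale, given without a test because *Cldn19* was singled out by the lengths from which these values are derived. The short transcript had 7.37, 6.98, 9.53, 8.77, 10.7 and 7.37 TPM in vehicle-treated mice and 6.06, 6.54, 8.35, 9.21, 8.47 and 8.26 TPM in SK-124-treated mice, and these ranges overlapped widely. The difference for the short transcript was -0.11 on the log2 scale, likewise given without a test. The long transcript made up 48.0% ± 4.67 (SD, n = 6) of *Cldn19* TPM in vehicle-treated mice and 25.9% ± 2.91 in SK-124-treated mice, 22.1 percentage points less.

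**Figure D3:**
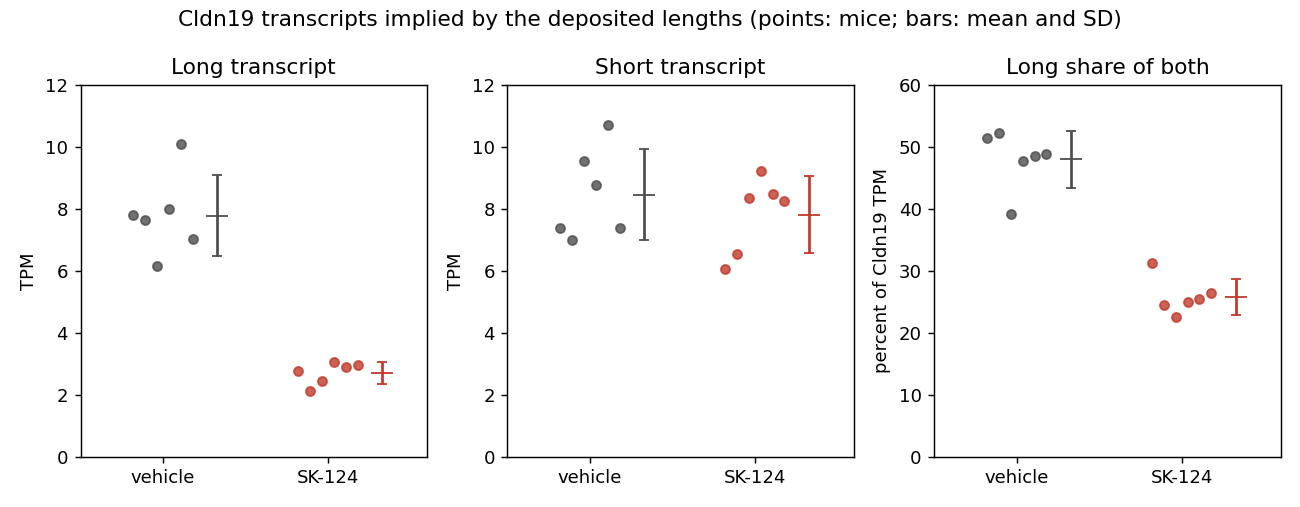
Implied TPM of the long and the short *Cldn19* transcript and the long transcript's share of their sum in percent (vertical axes, from 0) in each vehicle-treated and SK-124-treated mouse. Points are mice and bars are the mean and SD; the long transcript lies between 6.14 and 10.1 TPM in vehicle-treated mice and between 2.12 and 3.07 TPM in treated mice, while the short transcript overlaps.

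These transcript values are estimates, since reads within shared exons are divided by the authors' software and no coverage along the gene was analysed here. The antisense gene *Gm12927* overlaps *Cldn19* and had between 1 and 7 expected counts. Whether the long transcript falls through use of the splice site, of the 3′ end or through its stability was not tested.

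*Cldn10*, which makes a cation path in the thick ascending limb and an anion path in the proximal tubule from different first exons, did not pass the test in counts. Its TPM ranged from 107 over a median of 118 to 124 in vehicle-treated mice and from 80.3 over a median of 94.9 to 111 in SK-124-treated mice. In CPM the means were 130 ± 8.73 (SD, n = 6) and 119 ± 9.51, a log2 fold change of -0.13 (FDR = 0.13, edgeR's quasi-likelihood test). On log2(TPM + 1), where no scaling for library composition is made, limma gave -0.31 (adjusted p = 0.0218). The gene table holds 1 value for all first exons. From the listed lengths, the share of Cldn10-203, which begins at the downstream first exon, was at least 6.09% to 10.1% and at most 16.1% to 19.7% over vehicle-treated mice. With SK-124 these bounds were 8.52% to 10.6% and 18.3% to 20.2%, so they overlapped.

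The thick ascending limb claudins were also set against 8 marker genes of that segment within each mouse, as log2 TPM minus the mean log2 TPM of the markers. *Cldn14* was 3.25 higher with SK-124 on this scale, *Cldn16* 0.63 higher, and *Cldn19* lower with a difference of -0.32 (two-sided exact permutation tests, adjusted p = 0.00289 for each over 4 genes). The size of the *Cldn14* value depends on the 0.1 TPM added to it, since vehicle-treated mice had 0 to 0.09 TPM. With counts in place of TPM it was 5.49. *Cldn14* had passed the filter only through the SK-124-treated mice. *Cldn10* differed by -0.01 (adjusted p = 0.948) from this mean, which includes 2 markers that fell. For *Cldn14*, *Cldn16* and *Cldn19* the p before adjustment was 0.00216, the smallest the exact permutation test can give with 6 and 6 mice. Their equal p-values therefore do not rank the changes. All 3 were also called above in the same mice, so these tests are no separate support. Of the 8 markers, *Ptger3*, a prostaglandin receptor, rose (log2 fold change 0.45, FDR = 0.00108). *Bsnd*, the barttin subunit of chloride channels, fell (-1.27, FDR = 1.21e-09), as did *Sostdc1* (-0.62, FDR = 3.82e-05). The 5 others did not pass, so 37.5% were called, beside 24.4% of all tested genes. The summed CPM of the 8 was 2770 to 3740 in vehicle-treated mice and 3240 to 3850 in SK-124-treated mice. The reference mattered. Against *Slc12a1* alone, the salt carrier of the segment, *Cldn16* differed by 0.30 (adjusted p = 0.0714), and against *Umod* alone, uromodulin, by 0.26 (adjusted p = 0.0671), so its call was lost. *Cldn10* then passed, with -0.33 (adjusted p = 0.0289) and -0.37 (adjusted p = 0.00289). *Cldn19* differed by -0.65 (adjusted p = 0.00433) and -0.69 (adjusted p = 0.00289), and by -0.87 (adjusted p = 0.00289) when counts replaced TPM.

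Ratios of claudins within each mouse were compared for 8 pairs in which no mouse was at 0. The *Cldn16* to *Cldn19* TPM ratio ranged from 0.265 over a median of 0.337 to 0.36 in vehicle-treated mice. It ranged from 0.534 over a median of 0.633 to 0.691 in SK-124-treated mice. The ratio was thus higher in each treated mouse than in any vehicle-treated mouse, by 0.95 on the log2 scale. The *Cldn10* to *Cldn16* ratio was lower, 13.5 to 16.3 against 19.7 to 25.2, with a log2 difference of -0.63. The *Cldn10* to *Cldn19* ratio was higher, 8.34 to 9.86 against 5.51 to 8.33, by 0.32 (two-sided exact permutation tests, adjusted p = 0.00577 for each of these 3 pairs over 8). The lowest treated and the highest vehicle-treated mouse nearly met in that last ratio. Each of the 3 pairs holds *Cldn16* or *Cldn19*, both called above in the same mice, so these tests largely restate those calls. Before adjustment each p was 0.00216, the smallest the exact permutation test can give with 6 and 6 mice. The ratios with *Cldn19* depended on whether its length was divided out: with counts in place of TPM the log2 difference was 1.52 for *Cldn16* to *Cldn19* and 0.89 for *Cldn10* to *Cldn19* (adjusted p = 0.00433 for each). For *Cldn3* to *Cldn19* it was 0.35 in TPM (adjusted p = 0.0606) and 0.90 in counts (adjusted p = 0.00433). For *Cldn2* to *Cldn10* it was 0.22 (adjusted p = 0.0866). Of the collecting duct pairs, *Cldn7* to *Cldn8* differed by 0.36 (adjusted p = 0.0866; 0.39 in counts, adjusted p = 0.0173) and *Cldn4* to *Cldn8* by 0.26 (adjusted p = 0.126), and *Cldn3* to *Cldn4* by -0.27 (adjusted p = 0.206). The 2 pairs with *Cldn14* were not tested in TPM because 2 vehicle-treated mice were at 0.

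**Figure D4:**
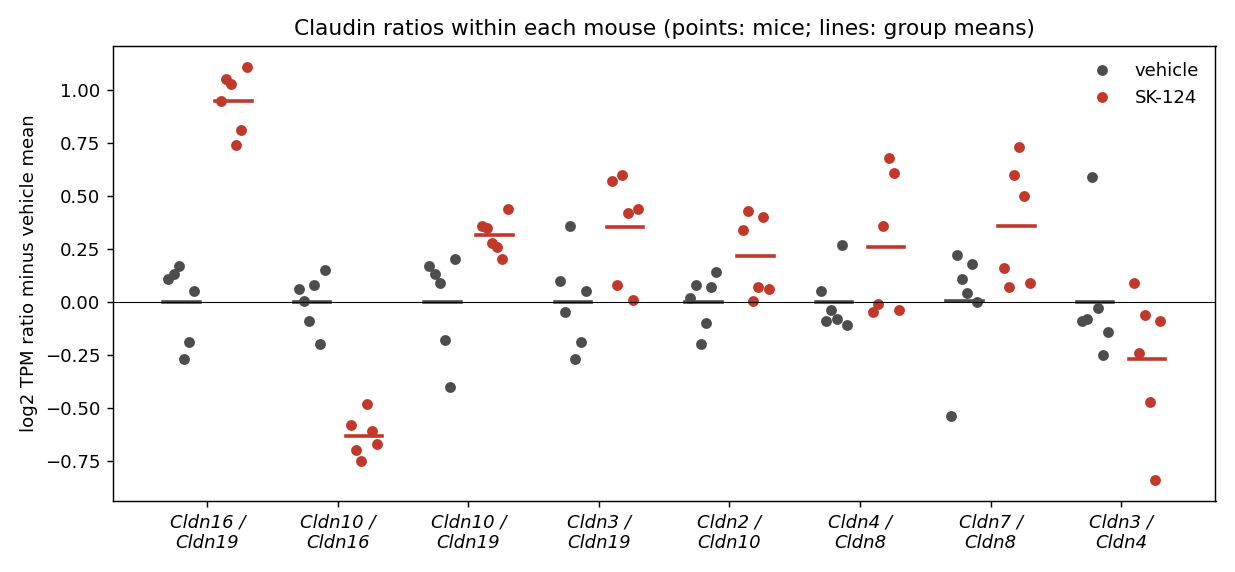
Log2 TPM ratio of each of 8 claudin pairs within a mouse, minus the vehicle mean of that pair (vertical axis), with points for mice and short lines for group means. Treated mice stand clearly apart from vehicle-treated mice in *Cldn16* to *Cldn19* and *Cldn10* to *Cldn16*, and the groups nearly meet in *Cldn10* to *Cldn19*.

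*Cldn2* (the proximal pore) had 358 to 426 CPM with a median of 403 in vehicle-treated mice and 388 to 470 with a median of 409 in SK-124-treated mice. The change in *Cldn2* was 0.06 on the log2 scale (95% interval -0.07 to 0.19, FDR = 0.516). *Cldn1* ranged from 11.6 to 14.1 CPM in vehicle-treated mice and from 8.42 to 16.2 in SK-124-treated mice, and 5 of the 6 treated mice lay below all vehicle-treated mice. The log2 fold change of *Cldn1* was -0.29 (FDR = 0.114), and without SK-124-treated mouse 1, which had 16.2 CPM, it was -0.45 (FDR = 0.000623, edgeR's quasi-likelihood test).

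The collecting duct and distal claudins did not pass the test. *Cldn8* had 34.8 to 39.3 CPM in vehicle-treated mice and 30.8 to 39.1 in SK-124-treated mice (log2 fold change -0.11, 95% interval -0.24 to 0.02, FDR = 0.242). *Cldn4* had 7.25 to 10.2 and 6.90 to 11.8 CPM (0.17, 95% interval -0.10 to 0.43, FDR = 0.374). *Cldn7*, found along the basolateral membrane of distal cells, had 4.25 to 6.50 and 5.44 to 9.06 CPM (0.29, 95% interval 0.02 to 0.56, FDR = 0.117). Its unadjusted interval excludes 0 and its adjusted p does not pass. *Cldn3*, which overlaps the antisense gene *Wbscr25* (at most 4 counts), had 8.77 to 13.7 and 7.11 to 12.3 CPM (-0.11, 95% interval -0.40 to 0.17, FDR = 0.608). The ranges of all 4 overlapped between the groups.

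6 claudins outside the 10 passed the filter, and 1 of them was called, 16.7% beside 24.4% of all tested genes. *Cldn15*, another cation pore, rose from 6.22 ± 0.595 (SD, n = 6) to 8.87 ± 1.68 CPM (log2 fold change 0.52, FDR = 0.0032, edgeR's quasi-likelihood test), and all 6 treated mice were above all vehicle-treated mice. With only SK-124-treated mice 1 to 3 it was 0.32 (FDR = 0.0949) and with only mice 4 to 6 it was 0.69 (FDR = 0.000587). In TPM its groups overlapped and limma on log2(TPM + 1) gave 0.26 (adjusted p = 0.173). *Cldn5*, the endothelial claudin, had a log2 fold change of -0.33 (FDR = 0.115). It passed in 4 of 24 alternatives, among them library totals only (-0.44, FDR = 0.0343, edgeR's quasi-likelihood test) and limma on log2(TPM + 1) (-0.33, adjusted p = 0.0337). *Cldn6*, *Cldn12*, *Cldn18* and *Cldn34c1* did not pass, with log2 fold changes from -0.26 to 0.07.

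Of 26 tight junction partner genes, 7 rose, 6 fell and 13 did not pass, with a median log2 fold change of 0.03. The 50% called stand beside 24.4% of all tested genes, of which 10.8% were higher and 13.5% lower. *Ocln*, occludin, rose by 0.35 (FDR = 0.00185), as did *Mpp5*, a polarity scaffold (0.50, FDR = 7.43e-05). *Jam2*, a junction adhesion molecule, also rose (0.62, FDR = 0.003), with overlapping groups of 4.79 to 8.68 and 8.12 to 11.7 CPM. *Tjp3*, the scaffold ZO-3, fell (-0.73, FDR = 6.45e-05). *Tjp1*, which encodes ZO-1, was at 51.4 and 53.0 CPM in the groups, and was named after its values were seen.

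Of 16 genes known to act on claudins, 1 rose, 7 fell and 8 did not pass, with a median log2 fold change of -0.14, again beside 24.4% of all genes called and 13.5% lower. *Casr*, the calcium-sensing receptor, fell from 46.9 to 28.9 CPM (-0.70, FDR = 0.00161), with overlapping groups of 25.7 to 54.3 and 22.7 to 35.2. *Wnk4*, a kinase of distal salt transport, fell (-0.55, FDR = 2.02e-05), and so did *Pdzrn3* (-0.51, FDR = 0.000622), the latter with overlapping groups. *Egfr*, the 1 gene of this list that rose (0.42, FDR = 0.000153), was named after its values were seen. Whether any of these changes bears on the claudin changes was not tested.

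In the genome *Cldn1* and *Cldn16* are neighbours, 91294 bases apart, and *Cldn16* rose while *Cldn1* did not pass (-0.29). On the other side of *Cldn16*, *Tmem207* had a log2 fold change of 0.14 (FDR = 0.443). Beside *Cldn14*, *Chaf1b* had 0.28 (FDR = 0.435) and *Sim2*, a transcription factor gene 76094 bases away, rose by 0.48 (FDR = 0.00528). Beside *Cldn19*, *P3h1* had -0.17 (FDR = 0.143) and *Ybx1* rose by 0.20 (FDR = 0.0186).

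As a description, genes were ranked by how closely their log2(CPM + 0.5) followed each called claudin over the 12 mice after removal of group means. For *Cldn19* the highest Pearson correlations among 14158 genes were with *Enah* (0.95), *Ptger3* (0.896) and *Prom2* (0.887). For *Cldn16* they were with *Snhg20* (0.911), *Hnmt* (0.895) and *Dio3os* (0.892). For *Cldn14* they were with *Fut11* (0.907), *Cdc42ep2* (0.905) and *Ranbp3l* (0.898), and the Spearman correlations of these were 0.651, 0.813 and 0.757. Vehicle-treated mice had only 0 to 2 *Cldn14* counts, so they add little to these *Cldn14* correlations. Being the highest of so many over few mice that share library depth, these values are high by selection.

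Markers of other cell types were listed beside these changes. In every list the summed CPM overlapped between the groups. The share called in each list stands beside 24.4% of all tested genes, and log2 fold changes are in brackets. Of 10 proximal tubule markers *Slc27a2* rose (0.18) and *Slc13a3* fell (-0.27), a share of 20%. Of 5 thin limb markers *Slc39a8* rose (0.23, overlapping groups), and of 5 distal convoluted tubule markers *Sgms2* rose (0.56), 20% in each list. Of 8 principal cell markers 37.5% were called. *Aqp2* rose (0.75, FDR = 0.000852) with overlapping groups, and *Avpr2* (-1.17) and *Hsd11b2* (-0.35) fell. Of 7 intercalated cell markers 3 rose and 2 fell, a share of 71.4%. Of 6 podocyte markers 1 rose, a share of 16.7%, and of 7 endothelial markers *Kdr* fell (-0.85), a share of 14.3%. Of 6 stromal markers *Acta2* rose (0.41, overlapping groups) and *Pdgfrb* (-0.93) and *Col1a2* (-0.45, overlapping groups) fell, a share of 50%. Of 6 immune cell markers tested *Cd68* (-0.60, overlapping groups) and *Cd79a* (-1.75) fell, a share of 33.3%. Of 6 blood markers *Slc4a1*, also an intercalated cell gene, fell (-0.59), a share of 16.7%. None of 5 urothelial markers and of 1 adrenal marker tested passed with edgeR's quasi-likelihood test, and no fat marker passed the filter. The part of cell makeup in the claudin results was not tested.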

How the data were processed

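Whole-kidney RNA of 12 mice (6 vehicle, 6 SK-124) was sequenced on a BGISEQ500 instrument, and replicate numbers come from the labels and belong to different mice. The authors deposited RSEM gene tables for each mouse with expected counts (estimated reads per gene, not normalized). The authors' TPM, scaled to effective length and library total, and weighted transcript lengths stand in the same deposited tables. The submitters' processing notes name FastQC, STAR 2.7.2b, RSEM 1.3.0, DESeq2 and mm10, and how strand was used is not given in the sources used here, so reads of antisense partners cannot be told apart. All 10 members were found in GENCODE M21 (GRCm38) under the same identifier and version, as were 54349 of the 55401 listed genes.

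Expected counts were rounded, filtered with edgeR's filterByExpr, TMM-scaled and compared between 6 and 6 mice by edgeR's quasi-likelihood test without a block. Ratios and marker-relative values were compared over mice with two-sided exact permutation tests on log2 values and adjusted by Benjamini-Hochberg within each family. A pseudocount of 0.1 TPM was added to *Cldn14* in the marker-relative values. For *Cldn19* the long share is the listed length minus the short transcript's length, divided by the difference of the 2 lengths. That description and its alternatives were added after seeing the data and carry no test. Genes named are the 10 members, other claudins that passed the filter, at most 4 of each other list with the largest changes at an FDR under 0.05, 3 nearest patterns and the neighbours of called members. The members and lists were chosen with earlier results of these data known.

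Totals of 19244227 to 19771802 counts per mouse limit mainly *Cldn14*. The method was tested on simulated data, and no pair of mice looked duplicated (over 30 pairs within groups, chi-square divided by its degrees of freedom was at least 4.69). Alternatives were DESeq2, RLE, library totals only, no filter, a minimum of 10 counts per mouse, counts left unrounded, a replicate block, dispersions estimated robustly, limma on TPM with 1 or 0.1 added before log2, each mouse left out, and SK-124-treated mice 1 to 3 or 4 to 6 only. For the ratios and marker-relative values they were counts in place of TPM, TPM + 0.1, other reference markers and each mouse left out. Exact tests used scipy 1.17.1 under Python 3.11.15, with numpy 2.4.6, pandas 2.3.3 and matplotlib 3.10.9. The R packages were DESeq2 1.42.0, limma 3.58.1 and edgeR 4.0.16 under R 4.3.3. Some genes of the lists are counted but not reported here by name. The FPKM column was not used here.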

Additional observations from a re-analysis of the deposited data

Results flagged for a closer look

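In 38 sets of 6 values (16 claudins in CPM and 3 *Cldn19* transcript measures, each in both groups), 3 held a mouse far from the others by Dixon's gap test, where chance gives about 1.9. *Cldn1* was 16.2 CPM in SK-124-treated mouse 1 and 8.42 to 11 in the other treated mice. *Cldn12* was 37.8 CPM in vehicle-treated mouse 3 and 43.9 to 47.4 in the other vehicle-treated mice. The long transcript's share of *Cldn19* was 39.2% in vehicle-treated mouse 3 and 47.7% to 52.3% in the other vehicle-treated mice, which is still above the highest treated mouse at 31.2%.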

How the results depend on the processing

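The log2 fold changes of *Cldn14* and *Cldn19* kept their direction and an adjusted p under 0.05 in every alternative that gave a value, ranging from 0.94 (limma on log2(TPM + 1)) to 4.90 and from -1.14 to -0.58, and *Cldn16* did so except with limma on log2(TPM + 0.1), where it was 0.32 (adjusted p = 0.0524). With at least 10 counts in every mouse *Cldn14* was not tested, leaving 1 member higher, and limma on log2(TPM + 0.1) also left 1. Members lower numbered 4 with library totals only (*Cldn1*, *Cldn8* and *Cldn10* joining *Cldn19*), 3 (without *Cldn8*) with limma on either log2(TPM + 1) or log2(TPM + 0.1), and 2 with SK-124-treated mice 4 to 6 alone (*Cldn1* and *Cldn19*). Leaving out each mouse gave 2 to 2 members higher and 1 to 2 lower, the second being *Cldn1* without SK-124-treated mouse 1. Library totals only moved the median of all genes to -0.118 and split the calls 777 higher and 3058 lower, against 1536 and 1917 with TMM scaling, so 44.5% became 20.3% higher.

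Genes changed numbered 2298 when SK-124-treated mice 4 to 6 were left out, 2960 to 3942 with each mouse left out, and 3453 in the fit reported. Ratio pairs passing numbered 5 with counts in place of TPM and 6 with TPM + 0.1, where all 10 pairs could be tested, and 3 to 4 with each mouse left out. Those 6 include *Cldn14* to *Cldn16* and *Cldn14* to *Cldn19*. There the added 0.1 exceeds each vehicle *Cldn14* value (0 to 0.09 TPM), and *Cldn14* had passed the filter only through treated mice. All 3 marker-relative calls held with each mouse left out (3 to 3).

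For the *Cldn19* long transcript, leaving out each mouse gave -23.9 to -21.3 percentage points and -1.59 to -1.44 on the log2 scale, and for the short one -0.163 to -0.0398.

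Values that changed sign were all of genes that did not pass. *Cldn2* was -0.06 with library totals only and -0.09 with limma on either TPM scale, and *Cldn4* was -0.0032 with limma on log2(TPM + 0.1). *Cldn12* was 0.01 with SK-124-treated mice 1 to 3 alone. *Cldn6* was -0.04 with library totals only, -0.01 and -0.05 with limma on log2(TPM + 1) and log2(TPM + 0.1), -0.16 with SK-124-treated mice 1 to 3 alone, and from -0.09 to 0.20 with each mouse left out. *Cldn10* relative to the markers was 0.01 with counts in place of TPM and up to 0.03 with a mouse left out. The cause of these shifts was not tested.

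Same-numbered mice did not deviate together (r from -0.131 to 0.217). With the replicate number as a block, 3466 genes changed and *Cldn14* was 4.59, *Cldn16* 0.50 and *Cldn19* -1.02, and *Cldn5* passed (-0.33, adjusted p = 0.0497). Depth limits *Cldn14*, which had 0 to 2 counts per vehicle-treated mouse.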
